A study of Mus musculus with 10 samples.

Results

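Circadian clock genes were examined in intestinal epithelial cells (IECs) of the mouse colon, in mice with and without RhoB, a small GTPase. The genes were the 10 rows of the expression table named Arntl, Clock, Per1, Per2, Per3, Cry1, Nr1d1, Nr1d2, Dbp and Tef, out of 55487 genes in all, and they were picked out by name. One RNA library was made from the IECs of each of 5 WT mice and 5 RhoB-/- mice, and both groups were untreated and on the C57BL/6J background. The mice labelled RhoB-/- were homozygous whole-body knockouts by their label, which the Rhob level of 1 of the 5 libraries went against, and came from a model organism centre, whereas the WT mice were purchased males, so that genotype and origin of the animals cannot be told apart. Mice of the study were 6 to 8 weeks old unless stated otherwise. The time of day at which the colons were taken is not given in the sources used here, and a difference in time of day and a difference of genotype cannot be told apart in these libraries. Values are TPM, a relative abundance of transcripts that is scaled for gene length and within each library.

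The circadian clock is a feedback loop of transcription that runs in most cells, the epithelium of the gut included, and follows light through the brain and feeding time in peripheral tissues. ARNTL (BMAL1) and CLOCK form a dimer that binds E-box elements and switches on the Per and Cry genes, whose proteins return to block the dimer. A connected loop is made by the nuclear receptors NR1D1 and NR1D2 (REV-ERB alpha and beta), which repress Arntl through ROR response elements, and a set of output genes is driven by DBP and TEF, which bind D-box elements. Because the transcripts of the loop peak at different times, their levels in tissue taken at one time depend on that time.

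In RhoB-/- IECs the mean level of Cry1 was 2.0 times that of WT, and Per3, Nr1d2 and Tef were lower, while the other members did not pass the test. Promoter windows of these 4 genes are shown, and each holds at least 1 of the sequence elements through which the clock proteins act. Windows of Arntl, Clock, Per1 and Nr1d1, which were not called, hold such elements too. The windows are from RefSeq on GRCm38.p6 and run from 250 bases before to 50 bases after a transcription start, and 9 of the 10 members had at least 1 window. Positions are counted from the start site, the stretches are written 5′ to 3′ on the strand of the gene, and capitals mark the motif. The Per3 stretch, chr4:151044786-151044885 on the minus strand, lies within the span of Camta1 and outside the exons of Per3, and holds the D-box TTATGTAA at -205 and -158. The Cry1 stretch, chr10:85185085-85185184 on the minus strand, is upstream of the gene and holds an E-box, CACGTG, at -60 and the related element CACGTT, called the E'-box here, on the other strand at -79. The Tef stretch, chr15:81811234-81811333 on the plus strand, lies before the second annotated start of Tef, within the gene and outside its exons, and holds an E-box at -138. Another E-box lies at -127 in the window of the first start of Tef, which is not shown. The Nr1d2 stretch, chr14:18239137-18239236 on the minus strand, is upstream of the gene and holds the core of a ROR response element, AGGTCA, at -77.
Per3: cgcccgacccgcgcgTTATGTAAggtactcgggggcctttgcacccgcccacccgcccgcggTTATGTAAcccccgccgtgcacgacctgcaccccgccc
Cry1: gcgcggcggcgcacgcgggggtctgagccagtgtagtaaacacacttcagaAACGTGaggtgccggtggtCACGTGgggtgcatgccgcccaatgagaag
Tef: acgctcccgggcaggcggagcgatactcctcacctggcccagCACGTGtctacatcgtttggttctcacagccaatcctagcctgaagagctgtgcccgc
Nr1d2: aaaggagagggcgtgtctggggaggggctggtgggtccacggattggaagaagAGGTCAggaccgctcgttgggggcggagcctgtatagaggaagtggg

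Both strands of 32851 windows of 300 bases were searched for the same letters, and no match in the windows of the members overlapped another. The E-box was in 7.15% of all windows and, among the members, in those of Per1, Cry1 and Tef. The E'-box was in 4.68% of all windows and in those of Cry1 and Nr1d1. The D-box was in 0.938% of all windows and in that of Per3, and the ROR element core was in 16.3% of all windows and in those of Arntl, Clock, Per1 and Nr1d2. Of the 14 windows of the members, 4 held the E-box, 2 the E'-box, 1 the D-box and 4 the ROR element core. A match describes the letters of the window and does not show that a protein was bound there.

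Rhob itself checked the labels. Its level was 170.52, 302.77, 364.92, 333.44 and 388.71 TPM in WT replicates 1 to 5 and 0.09, 0.10, 0.35, 0.57 and 110.87 TPM in the libraries labelled RhoB-/- replicates 1 to 5. The library labelled RhoB-/- replicate 5 stood apart from the others of its label, and each called gene of the 10 members is also given without it. Left out, it gave differences of 0.83 for Cry1, -0.86 for Per3, -0.68 for Nr1d2 and -0.66 for Tef on the log2 scale, and all 4 were still called by limma. Summed markers of colonic epithelium, of which Car1 was the most abundant, ranged from 26413 to 30550 TPM in WT and from 26868 to 43913 TPM in RhoB-/- IECs, and 4 of the 11 were called higher. Summed T cell markers ranged from 8.34 to 19.2 TPM in WT and from 42.0 to 52.3 TPM in RhoB-/- IECs. Of the 9 T cell markers 6 were tested, and 5 of these were called higher. Sums of B and plasma cell markers were 0.18 to 1.01 and 0.99 to 14.1 TPM, those of myeloid markers 2.96 to 10 and 4.45 to 18.7 TPM, those of fibroblast and muscle markers 3.33 to 4.2 and 5.80 to 35.3 TPM and those of endothelial markers 1.47 to 2.13 and 1.42 to 2.78 TPM, in WT and RhoB-/- IECs. The highest RhoB-/- sums of B and plasma cell, myeloid, and fibroblast and muscle markers were all in the library labelled RhoB-/- replicate 5. The next highest RhoB-/- sums were 6.04, 14.3 and 15.3 TPM. Of the myeloid markers 3 were tested and 1 was called higher, and of the fibroblast and muscle markers 2 were tested and 1 was called higher. No marker of B and plasma cells or of endothelium was tested. Over all tested genes 7.73% were called higher and 13.5% lower. No marker was at 0 in all 10 libraries, and the part of these cells in the clock gene values was not tested. The share of mitochondrially encoded transcripts lay between 17.5% and 26.5% in WT IECs, and between 10.3% and 22.4% in the 5 libraries labelled RhoB-/-. In bulk RNA, fewer cells of a type and less RNA per cell cannot be told apart.

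All 10 clock genes had a mean of at least 1 TPM and entered the test, which was limma on log2(TPM + 1) over 12870 genes, with a call at a Benjamini-Hochberg adjusted p below 0.05. Among them 4 were called, against 21.2% of all tested genes. Cry1 was the 1 called higher, where the background was 7.73%, and Per3, Nr1d2 and Tef were the 3 called lower, where it was 13.5%. The remaining 6 were not called. The median difference was -0.47 on the log2 scale over the 10 members and -0.13 over all tested genes. An alternative fit, called recentring below, subtracted the median difference over all tested genes from every RhoB-/- library. It gave 1443 genes called higher and 771 lower, in place of 995 and 1734. The groups did not overlap for 3 members, Cry1, Per3 and Nr1d2, against 14.5% of all tested genes. Cry1 was the 1 with all RhoB-/- libraries higher, where the background was 5.97%, and the other 2 were lower, where it was 8.55%. At an unadjusted p below 0.05 with a fold above 1.5, 4 members were called (14.7% of all tested genes), 1 higher (6.37%) and 3 lower (8.33%).

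**Figure D1:**
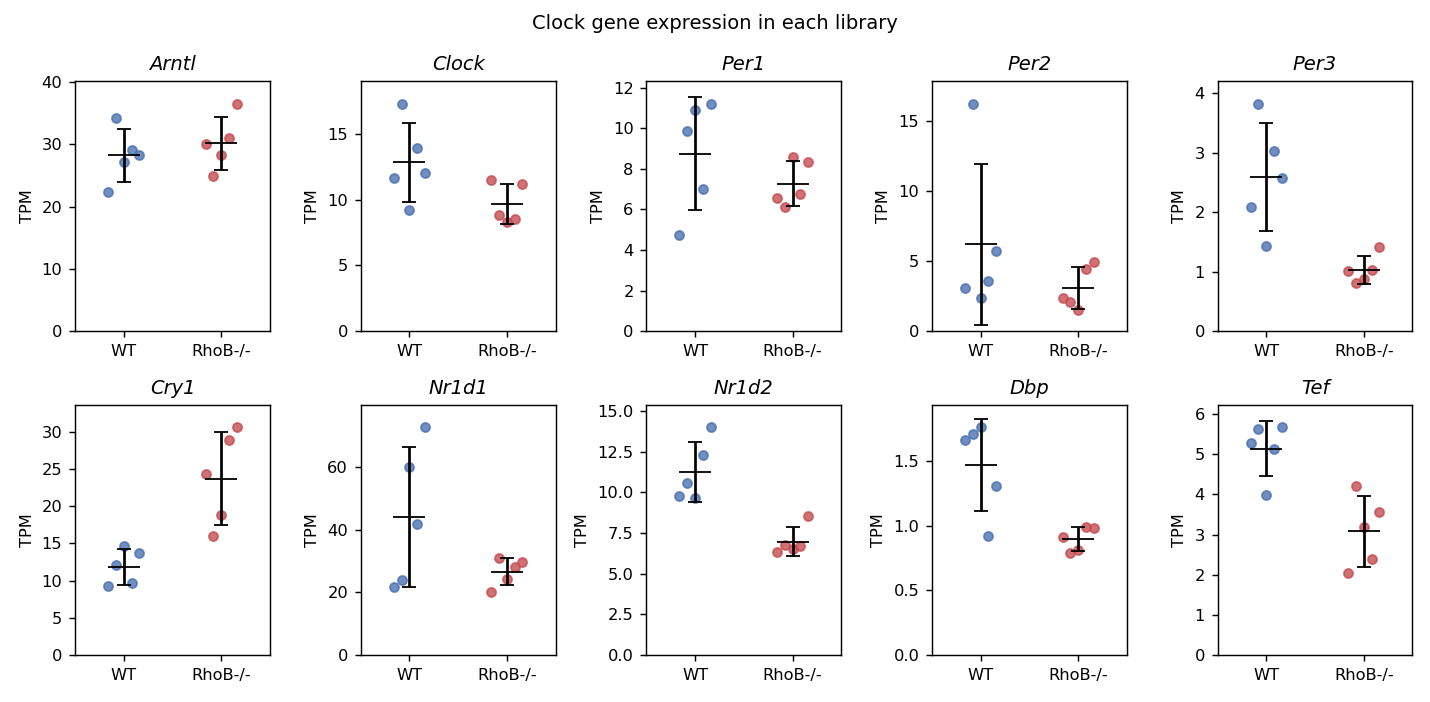
TPM of each of the 10 clock genes (vertical axes, each from 0) in the 5 WT and the 5 RhoB-/- libraries, with a point for each library and the mean and SD of each group. Cry1 is higher in every RhoB-/- library than in any WT library, Per3 and Nr1d2 are lower in every RhoB-/- library, and Per2 has 1 WT library at 16.26 TPM.

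The activators of the loop did not pass the test. Arntl, one partner of the dimer, was at 22.36, 34.25, 27.23, 29.16 and 28.29 TPM in WT replicates 1 to 5 and at 30.08, 24.87, 28.34, 31.04 and 36.51 TPM in RhoB-/- replicates 1 to 5. The groups overlapped over most of their range, and the highest value was in the library labelled RhoB-/- replicate 5. The difference was 0.09 on the log2 scale (SE 0.13, 95% interval -0.19 to 0.38, limma adjusted p = 0.629) and ranged from 0.01 to 0.16 with each library left out, with means of 28.3 ± 4.26 TPM in WT and 30.2 ± 4.25 TPM in RhoB-/- IECs (SD, n = 5 each). Clock, the other partner, was at 11.62, 17.27, 9.23, 13.91 and 12.04 TPM in the WT libraries and at 11.52, 8.85, 8.31, 8.55 and 11.16 TPM in RhoB-/- IECs. All 5 RhoB-/- values lay under the WT median, and WT replicate 3 lay among them. The difference in Clock was -0.36 (SE 0.16, 95% interval -0.69 to -0.02, limma adjusted p = 0.119).

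Of the genes whose proteins block the dimer, Cry1 rose and Per3 fell. Cry1, which encodes a cryptochrome, was at 9.23, 12.04, 14.68, 9.63 and 13.72 TPM in the WT libraries and at 24.42, 15.96, 18.86, 28.87 and 30.62 TPM in RhoB-/- IECs. Every RhoB-/- library was above every WT library, with RhoB-/- replicate 2 nearest to the WT values and replicate 5 farthest from them. The means were 11.9 ± 2.42 TPM and 23.7 ± 6.29 TPM (SD, n = 5 each), a difference of 0.93 on the log2 scale (SE 0.19, 95% interval 0.52 to 1.34, limma adjusted p = 0.00604), or 1.05 above the median of all tested genes. Over every alternative setting and with each library left out in turn, the Cry1 difference stayed between 0.83 and 1.05 and was called.

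Per3, a period gene, was at 2.09, 3.82, 1.43, 3.02 and 2.58 TPM in the WT libraries and at 1.01, 0.81, 0.88, 1.02 and 1.42 TPM in RhoB-/- IECs. The groups were separate by a narrow margin, between WT replicate 3 at 1.43 TPM and the library labelled RhoB-/- replicate 5 at 1.42 TPM. Per3 fell by 0.79 on the log2 scale (SE 0.19, 95% interval -1.22 to -0.37, limma adjusted p = 0.0152), which understates the change because the levels are near the pseudocount, and by 1.21 with a pseudocount of 0.1. The gene lies wholly within the span of Camta1 on the same strand, with 0 shared exon bases, and Camta1 itself differed by -0.16 (limma adjusted p = 0.658).

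The other period genes were not called. Per1, which also responds quickly to outside signals, was at 4.75, 9.84, 10.91, 6.99 and 11.20 TPM in the WT libraries and at 6.54, 6.11, 8.60, 6.75 and 8.35 TPM in RhoB-/- IECs. The RhoB-/- values lay inside the WT range, with a difference of -0.19 (SE 0.20, 95% interval -0.63 to 0.24, limma adjusted p = 0.511). It was -0.37 without WT replicate 1, -0.10 without WT replicate 3 and -0.10 without WT replicate 5. Per2 was at 3.10, 16.26, 2.38, 3.62 and 5.73 TPM in the WT libraries and at 2.39, 2.11, 1.53, 4.47 and 4.93 TPM in RhoB-/- IECs. WT replicate 2 was far above all other libraries, and the difference was -0.62 with it (SE 0.40, 95% interval -1.50 to 0.26, limma adjusted p = 0.286) and -0.24 without it.

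**Figure D2:**
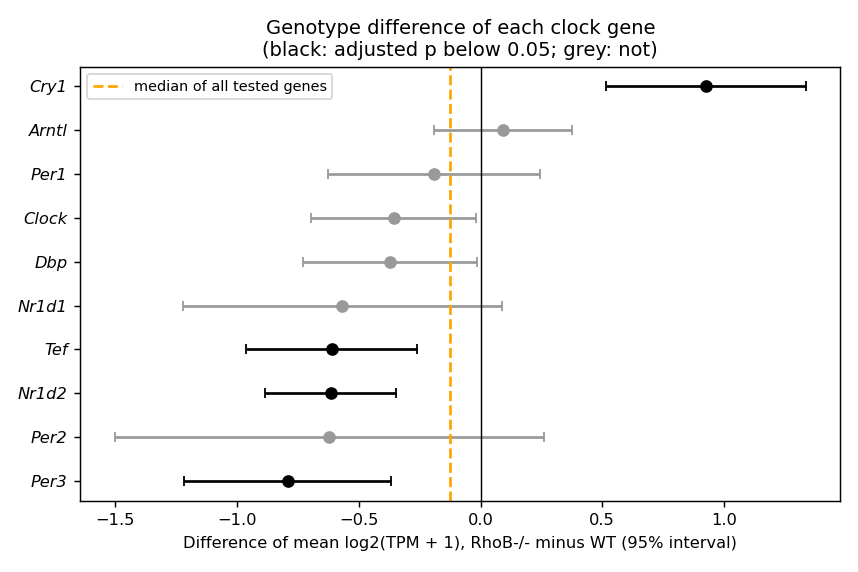
Difference of mean log2(TPM + 1), RhoB-/- minus WT, with its 95% interval, for each clock gene (horizontal axis in log2 units), in black where the limma adjusted p was below 0.05, and the median of all tested genes as a dashed line. Cry1 lies at 0.93 on one side, Per3, Nr1d2 and Tef lie at -0.79, -0.62 and -0.61 on the other, and the interval of Per2 is the widest.

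Between the receptors of the second loop, Nr1d2 was called and Nr1d1 was not. Nr1d2 was at 9.74, 10.59, 9.62, 12.29 and 13.98 TPM in the WT libraries and at 6.34, 6.77, 6.48, 6.68 and 8.53 TPM in RhoB-/- IECs. Every RhoB-/- library was below every WT library, and 4 of the 5 were close together with replicate 5 above them. Nr1d2 fell by 0.62 on the log2 scale (SE 0.12, 95% interval -0.88 to -0.35, limma adjusted p = 0.00555), from 11.2 ± 1.86 TPM to 6.96 ± 0.894 TPM (SD, n = 5 each), and it was called under every alternative and with each library left out. Nr1d1 was at 21.74, 23.85, 59.98, 41.85 and 72.69 TPM in the WT libraries and at 20.09, 31.09, 24.35, 27.98 and 29.54 TPM in RhoB-/- IECs. WT replicates 1 and 2 lay with the RhoB-/- libraries, and the other 3 WT libraries lay above all of them. The difference in Nr1d1 was -0.57 (SE 0.30, 95% interval -1.22 to 0.09, limma adjusted p = 0.190), and -0.35 without WT replicate 5. Nr1d1 shares 263 bases, 8.55% of its exonic bases, with the antisense gene Thra. The paper states that reads were aligned in an orientation mode, but whether the counting used strand is not given in the sources used here. Reads from these bases therefore cannot be assigned between Nr1d1 and Thra.

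Dbp and Tef encode related transcription factors of the output of the clock. Tef was at 5.29, 5.63, 3.99, 5.13 and 5.67 TPM in the WT libraries and at 2.03, 4.21, 3.19, 2.39 and 3.57 TPM in RhoB-/- IECs. The groups overlapped through WT replicate 3 and RhoB-/- replicate 2, and every other RhoB-/- library was below every WT library. Tef fell by 0.61 on the log2 scale (SE 0.16, 95% interval -0.96 to -0.26, limma adjusted p = 0.0210), from 5.14 ± 0.683 TPM to 3.08 ± 0.881 TPM (SD, n = 5 each). The call of Tef was lost with recentring, where the difference was -0.48 (limma adjusted p = 0.0593). That call was also lost without WT replicate 2 (-0.58), RhoB-/- replicate 1 (-0.51) or RhoB-/- replicate 4 (-0.55). Dbp was at 1.66, 1.71, 1.76, 0.92 and 1.31 TPM in the WT libraries and at 0.91, 0.79, 0.81, 0.99 and 0.98 TPM in RhoB-/- IECs. WT replicate 4 lay among the RhoB-/- libraries, and the other WT libraries lay above them. The difference in Dbp was -0.37 (SE 0.16, 95% interval -0.73 to -0.01, limma adjusted p = 0.125), at a mean of 1.18 TPM over all libraries. Dbp shares 539 bases, 18% of its exonic bases, with the antisense gene Sphk2, which had means of 26.9 TPM and 21.8 TPM in WT and RhoB-/- IECs. As with Nr1d1 and Thra, reads from these bases cannot be assigned between Dbp and Sphk2. Every use of the Dbp values below carries this limit.

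By mean level, Nr1d1 and Arntl were the most abundant members and Per3 and Dbp the least abundant in both genotypes, although Nr1d1 was above Cry1 in only 2 of the 5 RhoB-/- libraries. The order in WT was Nr1d1, Arntl, Clock, Cry1, Nr1d2, Per1, Per2, Tef, Per3 and Dbp. Between neighbours in this order the ranges over libraries were separate only for Arntl over Clock and for Tef over Per3. In RhoB-/- IECs the order was Arntl, Nr1d1, Cry1, Clock, Per1, Nr1d2, Per2, Tef, Per3 and Dbp. There the ranges of neighbours were separate for Cry1 over Clock, Nr1d2 over Per2 and Tef over Per3, and Arntl and Nr1d1 overlapped.

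Ratios of members within a library do not depend on how the library was scaled, and they are given as a description. The log2 ratio of Cry1 to Nr1d1 was -1.24, -0.99, -2.03, -2.12 and -2.41 in WT and 0.28, -0.96, -0.37, 0.05 and 0.05 in RhoB-/- IECs, so that the groups were separate by a small gap between WT replicate 2 and RhoB-/- replicate 2. The log2 ratio of Cry1 to Dbp ranged from 2.48 to 3.39 in WT and from 4.34 to 4.97 in RhoB-/- IECs, without overlap. The log2 ratio of Nr1d2 to Arntl ranged from -1.69 to -1.02 in WT and from -2.25 to -1.88 in RhoB-/- IECs, also without overlap. The ratios of Nr1d1 to Arntl and of Dbp to Arntl overlapped between the genotypes, the latter through WT replicate 4. Each separate ratio holds Cry1 or Nr1d2, whose levels alone did not overlap between the genotypes.

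**Figure D3:**
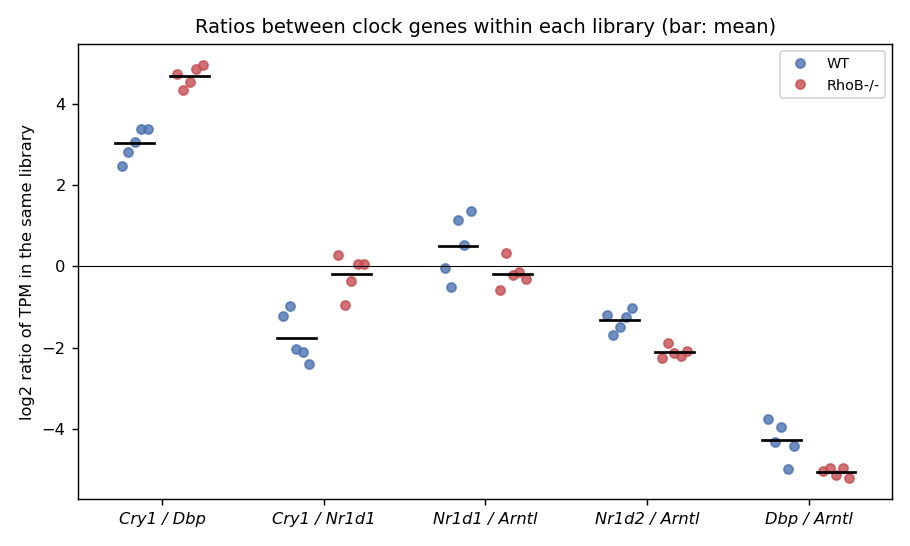
Log2 ratios of TPM between pairs of clock genes within each library (vertical axis), with a point for each WT and RhoB-/- library. The ratios of Cry1 to Nr1d1, Cry1 to Dbp and Nr1d2 to Arntl are separate between the genotypes, and those of Nr1d1 to Arntl and Dbp to Arntl overlap.

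The members varied more among WT mice than among RhoB-/- mice in 8 of 10 cases by the coefficient of variation, whereas 39.5% of all tested genes did so, and this difference was not tested. The highest Nr1d1 value was 3.34 times the lowest in WT and 1.55 times in RhoB-/- IECs. For Per2 the same spread was 6.83 times and 3.22 times, but the larger spread in WT rests on WT replicate 2 at 16.26 TPM. The other WT libraries ranged from 2.38 to 5.73 TPM of Per2, and the RhoB-/- libraries from 1.53 to 4.93 TPM. Cry1 and Tef varied more among RhoB-/- mice. In deviations from the genotype means over the 10 libraries, 33 of the 45 pairs of members had a correlation above 0. The closest pair by Pearson's r was Clock and Per3 (r = 0.90, Spearman rho = 0.75, n = 10), with r at 0.70 without the 2 libraries farthest from the median of Clock, and the closest by rho was Arntl and Per3 (r = 0.72, rho = 0.92). The lowest r was that of Clock and Nr1d1 (r = -0.48, rho = -0.39), which was -0.04 without the 2 farthest libraries, and the lowest rho that of Nr1d2 and Dbp (r = -0.47, rho = -0.67). The libraries share their scaling, the share of positive correlations among pairs of other genes was not computed, and these values are a description.

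Immediate-early genes, which are switched on within minutes of a stimulus such as tissue handling, moved with Nr1d1 among the WT mice. Their summed level was 2110, 3551, 6336, 4005 and 6502 TPM in WT replicates 1 to 5 and 3965, 3329, 4780, 4020 and 4717 TPM in RhoB-/- replicates 1 to 5. The WT libraries had the same order in this sum as in Nr1d1, and the RhoB-/- libraries did not. The part of these genes in the Nr1d1 values was not tested. Among the 17 of 18 immediate-early genes tested, 0 were called higher and 2 lower by limma, also at an unadjusted p below 0.05. Over all tested genes, 7.73% were called higher and 13.5% lower at the adjusted threshold, and the shares at the unadjusted one were not computed. The 2 were Klf2 with a difference of -1.23 and Nr4a1 with -0.81. The call of Nr4a1 was lost in 9 of 15 alternative fits, among them recentring and 7 in which 1 library was left out.

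**Figure D4:**
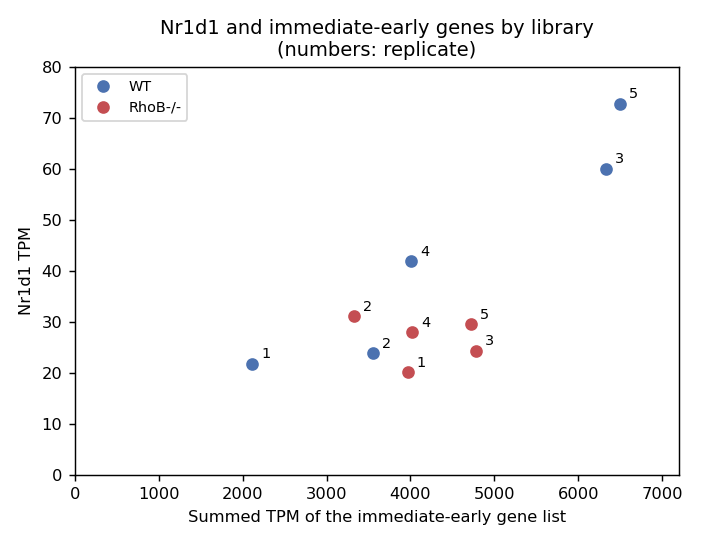
Nr1d1 TPM (vertical axis) against the summed TPM of the immediate-early genes (horizontal axis) in each library, with its replicate number. The 5 WT libraries rise in the same order on both axes, from 21.74 to 72.69 TPM of Nr1d1, while the RhoB-/- libraries lie between 20.09 and 31.09 TPM.

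A list of 18 other clock genes was read from the same fit. Of these 12 were tested, 0 were called higher, 3 were called lower and 9 were not called, with a median difference of -0.18 beside -0.13 over all tested genes, of which 7.73% were called higher and 13.5% lower. At an unadjusted limma p below 0.05 the counts were 0 higher and 5 lower. The share of all tested genes at that unadjusted threshold was not computed, so these 2 counts have no background beside them. Cry2, the second cryptochrome, was at 4.92, 9.98, 6.53, 8.22 and 6.87 TPM in the WT libraries and at 3.50, 3.94, 5.20, 4.05 and 6.34 TPM in RhoB-/- IECs. Its groups overlapped, and it fell by 0.56 on the log2 scale (SE 0.18, limma adjusted p = 0.0466), opposite in direction to Cry1. Btrc, an adaptor of the ubiquitin ligase that acts on PER proteins, fell by 0.46 (limma adjusted p = 0.0207), and Timeless, which also serves DNA replication, fell by 0.69 (limma adjusted p = 0.0285). All 3 calls were lost with recentring and with replicate number as a block. Over 15 alternative fits, the call of Cry2 was lost in 10, that of Timeless in 7 and that of Btrc in 5. Ciart, a repressor of the dimer, averaged 1.77 ± 0.705 TPM in the WT group and 0.816 ± 0.147 TPM in the RhoB-/- group (SD, n = 5 each), and its groups did not overlap, but it was not called (difference -0.58, limma adjusted p = 0.0518).

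The genes of the list described next were tested and not called. Npas2, which can stand in for Clock, had means of 14.8 and 13.7 TPM in WT and RhoB-/- IECs. Nfil3, which competes with DBP at D-boxes, had means of 15.6 and 18.1 TPM. Bhlhe40, a repressor at E-boxes, had means of 82.5 and 65.8 TPM. The kinases Csnk1d and Csnk1e, which phosphorylate PER proteins, had means of 52.7 and 55.5 TPM and of 9.73 and 9.06 TPM. Nono had a difference of -0.35 (limma adjusted p = 0.0642). Arntl2, Rora, Rorb, Hlf, Bhlhe41 and Fbxl21 were under the filter of 1 TPM.

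Genes known as outputs of the clock in other tissues were also read from the fit. Of 16 listed, 14 were tested, 4 were called higher, 2 lower and 8 were not called, with a median difference of 0.26, beside the same shares of 7.73% and 13.5% over all tested genes. Slc9a3, a sodium and proton exchanger of the absorptive surface, was at 42.47, 35.02, 55.26, 34.64 and 63.87 TPM in the WT libraries and at 212.60, 251.36, 126.50, 191.13 and 268.15 TPM in RhoB-/- IECs, without overlap (difference 2.15, SE 0.22, limma adjusted p = 6.51e-05). Nampt, an enzyme of NAD synthesis, rose by 0.90 (limma adjusted p = 7.45e-04). Noct, a phosphatase that removes a phosphate from NADP, rose by 0.86 (limma adjusted p = 0.0119), and Usp2, a deubiquitinase, rose by 0.80 (limma adjusted p = 0.00613). Wee1, a kinase that holds back entry into mitosis, had values of 6.09, 7.91, 6.02, 8.12 and 6.09 TPM in the WT libraries and at 3.57, 2.41, 4.95, 3.69 and 4.87 TPM in RhoB-/- IECs, and fell by 0.70 (SE 0.16, limma adjusted p = 0.0123). Lonrf3 fell by 0.42 (limma adjusted p = 0.0475), a call that was lost in 10 of 15 alternative fits. Among them were recentring, no filter, the replicate block and 7 in which 1 library was left out.

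**Figure D5:**
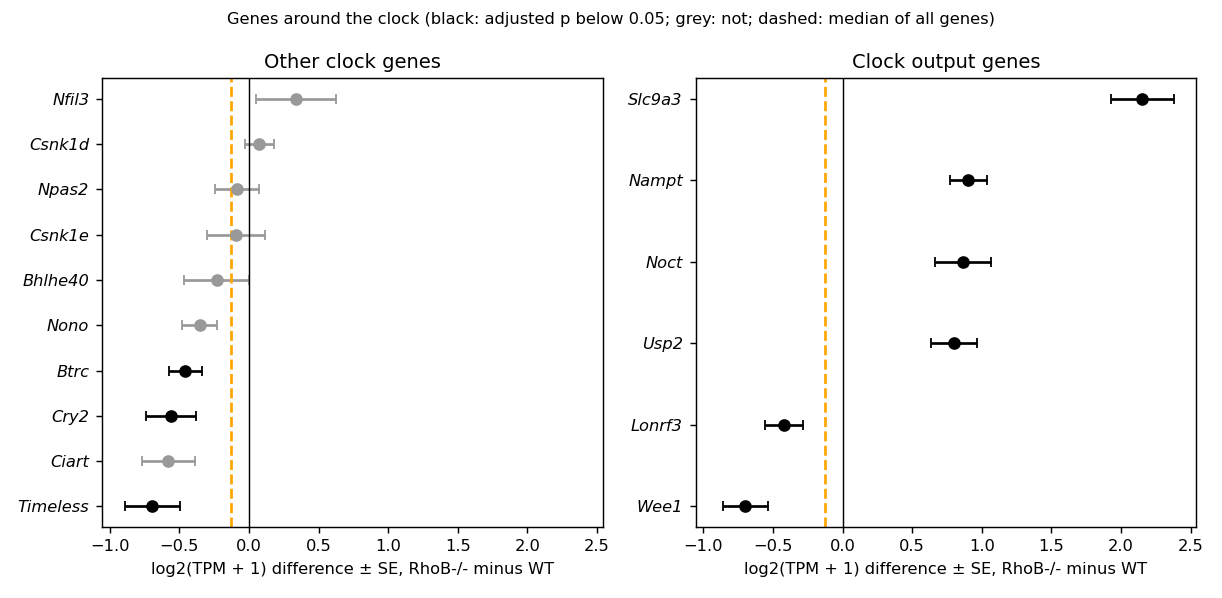
Differences of mean log2(TPM + 1), RhoB-/- minus WT, with their SE, of the other clock genes and the called clock output genes that the text names (horizontal axis in log2 units), in black where called. Slc9a3 lies farthest to the higher side at 2.15, and Wee1, Timeless and Cry2 lie at -0.70, -0.69 and -0.56.

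Heat shock genes were lower in RhoB-/- IECs. Of 10 heat shock genes tested, 9 were called lower and 0 higher by limma (10 and 0 at an unadjusted p below 0.05), with a median difference of -1.30, and their summed level was 3904 to 5101 TPM in WT and 1143 to 1989 TPM in RhoB-/- IECs. Of these calls, that of Hspe1 was lost in 12 and that of Hspd1 in 7 of 15 alternative fits. The largest differences were those of Hspa1a and Hspa1b, at -3.93 and -3.47, which are near-identical copies whose reads can be split between them, and of Hspb1 and Hsph1, at -2.66 and -1.52. Of 8 glucocorticoid response genes, 7 were tested, and 2 were called higher and 1 lower by limma: Fkbp5 at 1.08, Sgk1 at 1.25 and Ddit4 at -1.36. Beside the counts of both lists, 7.73% of all tested genes were called higher and 13.5% lower at the adjusted threshold. The shares at the unadjusted threshold were not computed. The median of the glucocorticoid list was -0.21, and its sums overlapped between the genotypes. The part of these responses in the clock gene values was not tested.

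Genes most like Arntl and Dbp were sought among 9275 genes with a mean of at least 5 TPM, by the correlation of deviations from the genotype means over 10 libraries. Those most like Arntl were Diaph1 (r = 0.98), Rsbn1l (r = 0.98), Dhx8 (r = 0.97), Hps5 (r = 0.96) and Adipor2 (r = 0.96). Those most like Dbp were 2210009P08Rik (r = 0.81), Rnu3b2 and Rnu3b3, which held identical values (r = 0.76), Zbp1 (r = 0.75) and Acyp1 (r = 0.75). No member of the clock lists was among them, and the highest of 9275 correlations is high by selection.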

How the data were processed

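Genotype and replicate of the 10 libraries, 5 WT and 5 RhoB-/-, were taken from the labels. Read trimming by the authors used SeqPrep and Sickle, alignment used HISAT2, assembly used StringTie and gene quantification used RSEM. The submitters' processing notes also list edgeR and GRCm38.p6. The deposited TPM values, given to 2 decimals, keep no depth, so the counting error of each value is unknown.

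Differences are of mean log2(TPM + 1), RhoB-/- minus WT, and understate changes of low genes. They were tested with limma 3.58.1 in R 4.3.3 (lmFit, eBayes with trend) over the 12870 genes that averaged 1 TPM or more, with Benjamini-Hochberg adjustment and a threshold of 0.05. Errors are SD between mice, and the SE is that of the fit. The fit was tested on simulated data. Replicates are separate mice.

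The members, a set of clock genes taken by name, and the gene lists were chosen with earlier results of these data known. All members are named, with called genes of the other clock and clock output lists and the 4 largest of each stress and hormone list. Cell type markers are given as sums. Some genes of the lists are counted but not reported here by name. Positions are from GENCODE M21 on GRCm38, and promoter windows from RefSeq on GRCm38.p6. Alternatives were a pseudocount of 0.1, no filter, a replicate block, recentring and removal of mitochondrially encoded genes. Others were a threshold of unadjusted p below 0.05 with a fold above 1.5, and leaving out each library. Recentring subtracted the median difference over all tested genes from every RhoB-/- library. Figures were drawn with matplotlib 3.10.9.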

Additional observations from a re-analysis of the deposited data

Results flagged for a closer look

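In 2 of 20 groups of 5 libraries, 1 library lay far from the other 4 by Dixon's criterion, which chance meets in about 1 in 20 groups. Per2 was at 16.26 TPM in WT replicate 2, where the gap to the next library was 0.759 of the range of the group. In the library labelled RhoB-/- replicate 5, Nr1d2 reached 8.53 TPM, where the gap was 0.804 of the range, and this is the library in which Rhob was at 110.87 TPM.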

How the results depend on the processing

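No difference of a member reversed. Cry1, Per3 and Nr1d2 were called in all 15 alternative fits, with limma adjusted p of 0.00261 to 0.0219, 0.00534 to 0.0446 and 0.00170 to 0.0191. Tef was not called without the filter (-0.61, limma adjusted p = 0.0548) or with recentring (-0.48). Nor was Tef called without WT replicate 2 (-0.58), RhoB-/- replicate 1 (-0.51) or RhoB-/- replicate 4 (-0.55). Its difference ranged from -0.71 to -0.51 with each library left out. Without mitochondrially encoded genes 5 members were called lower, Clock (-0.43) and Dbp (-0.45) being added. In that fit 3729 of all 13287 tested genes were called lower, against 1734 of 12870 in the main fit. The median difference over all tested genes was -0.20 there and -0.13 in the main fit. Clock was also called without WT replicate 3 (-0.46), and ranged from -0.46 to -0.25 with each library left out. The members called lower were 2 to 4 with each library left out. Over all genes, 1734 called lower became 771 with recentring, 3729 without mitochondrially encoded genes and 1072 at the unadjusted threshold with a fold. They ranged from 853 to 2868 with a library left out, with 950 without WT replicate 2, 853 without WT replicate 4, and 985, 2868 and 1116 without RhoB-/- replicates 1, 3 and 5. The cause of these changes was not tested. The other clock genes called lower ranged from 0 to 5.

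The replicate numbers are shared between genotypes but belong to different mice, and deviations of same-numbered libraries correlated at 0.02, 0.02, 0.07, -0.09 and -0.00. With the replicate number as a block, 836 genes were called higher and 1059 lower, and the members called stayed at 1 higher and 3 lower. TPM holds no depth, so how far counting error limits Per3 and Dbp, the lowest members, is unknown.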
